A study of Bos taurus with 6 samples.

Results

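The sirtuin family comprises the NAD-dependent lysine deacylases, and its 7 members, SIRT1 to SIRT7, were taken by gene symbol from the 18862 genes listed for each library. All 7 were present once in the files of 8-cell bovine embryos. The GSKA group consisted of in vitro fertilized embryos kept from fertilization onwards in medium with GSKA at 200 pmol/L (an inhibitor of lactate dehydrogenase A, dissolved in DMSO), and the control group consisted of embryos cultured at 0 pmol/L GSKA. Both groups came from slaughterhouse oocytes matured and fertilized in vitro, the methods give the DMSO content of the culture medium as equal between groups, and the zona pellucida was removed before lysis. Each group had 3 libraries prepared with the SMART-Seq v4 low-input kit. Each library is 1 sample of embryo RNA without separate cells, the number of embryos in a library is not stated, and the labels give only "female" as the tissue. The methods call the replicates of the experiments biological, and neither they nor the labels say whether each library came from its own culture, so each p-value reflects the scatter among these 6 libraries.

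Sirtuins remove acyl groups from lysine side chains and consume 1 NAD for each group removed. SIRT1, SIRT6 and SIRT7 are mainly nuclear and act on histones and transcription factors, SIRT2 is mainly cytosolic, and SIRT3, SIRT4 and SIRT5 reside in mitochondria. Work in human cells has named SIRT1, SIRT2 and SIRT3, together with the zinc-dependent enzymes HDAC1, HDAC2 and HDAC3, as enzymes that can remove lactyl groups from lysine. Lactate dehydrogenase regenerates NAD when it makes lactate, and NMN, which the study added to other cultures, is a precursor of NAD. The question here is whether the RNA of the sirtuins differed between GSKA embryos and controls.

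Levels are in FPKM, a fragment count scaled for transcript length and for the size of the library, so those of different genes can be set side by side. FPKM holds no read counts, so the depth is unknown and no counting error is given. FPKM summed to between 541159 and 551265 in the GSKA libraries and between 497035 and 581839 in the controls, and 14536 to 15320 genes against 14295 to 15370 genes were above 0. Mitochondrial genes carried 5.31% to 7.26% of the FPKM in the GSKA libraries and 6.05% to 13.2% in the controls, with the highest share in control replicate 1. Of 11 oocyte and maternal markers, 10 were in the files and all 10 were above 0, with a summed level of 3100 to 3940 FPKM in the GSKA libraries and 2250 to 3140 FPKM in the controls. Of these 10, KHDC3L rose (log2 fold change 1.46, limma adjusted p = 0.0348). At an unadjusted p under 0.05 from limma 5 of the 10 were higher, beside 9.4% of all tested genes. Their median log2 fold change was 0.56, beside 0.09 over all tested genes. Of 8 markers of genome activation and pluripotency only KLF17, POU5F1 and NANOG were found by symbol. Their summed level was 368 to 673 FPKM in the GSKA libraries and 223 to 565 FPKM in the controls. KLF17 carried most of it, with means of 466 FPKM in the GSKA group and 359 FPKM in the control group. NANOG had means of 7.59 and 9.97 FPKM in the same order. POU5F1 was at 39.8 to 55.6 FPKM in the GSKA libraries and 27.2 to 36.0 FPKM in the controls. Its log2 fold change was 0.64 (limma adjusted p = 0.296). Of the 3 markers, POU5F1 alone had groups apart, beside 12.9% of all tested genes apart and higher. It was also the 1 higher at an unadjusted p under 0.05 from limma, beside 9.4% of all tested genes.

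RNA of all 7 sirtuins was found, and the family was dominated by 4 of them. SIRT7, SIRT3, SIRT1 and SIRT6 together made up 89.5% to 96.3% of the summed sirtuin FPKM of a library. SIRT6 held rank 4 in all 6 libraries. SIRT2, SIRT4 and SIRT5 took the 3 lowest places in every library, with no value above 3.91 FPKM. No sirtuin passed the test between the groups, and for none of them did the 3 GSKA libraries lie entirely above or below the 3 controls. In bulk RNA of this kind, fewer cells and less RNA per cell cannot be told apart.

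**Figure D1:**
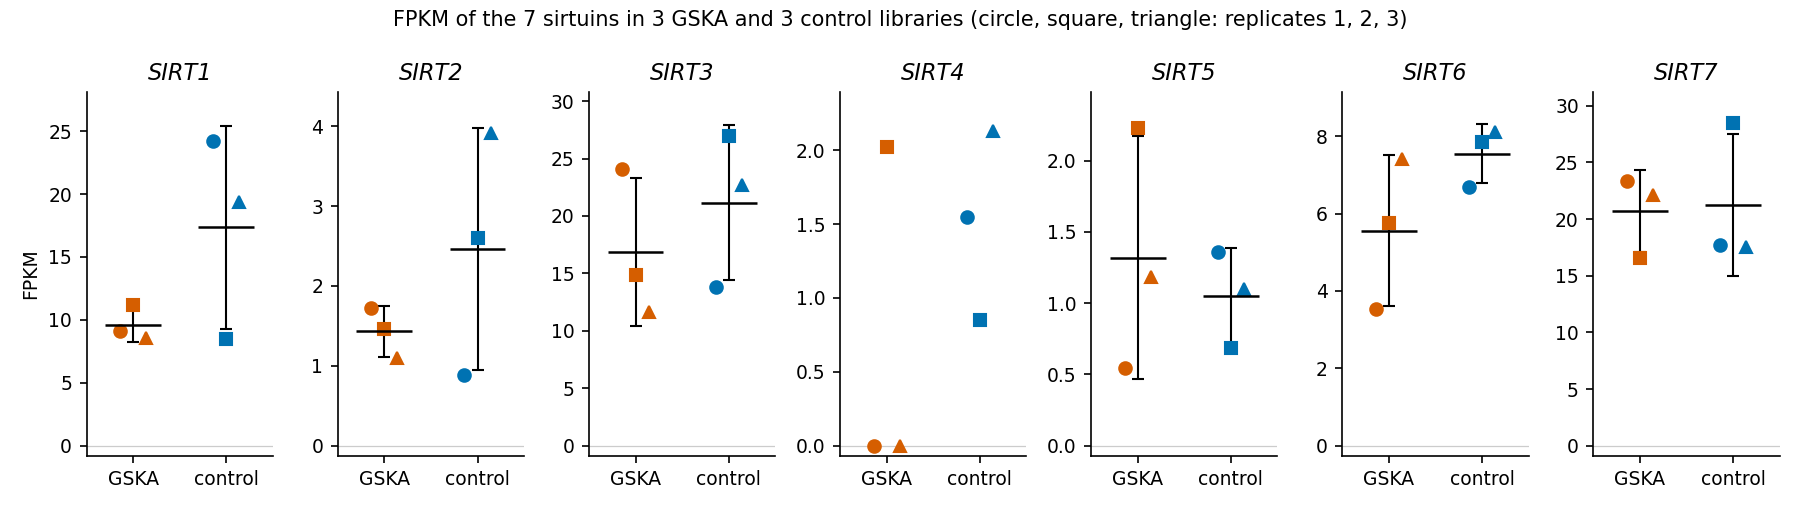
FPKM of each sirtuin (one panel each, own y axis from 0) in the 3 GSKA libraries (orange) and the 3 control libraries (blue), where circle, square and triangle mark replicates 1, 2 and 3, the long bar is the mean and the error bar is 1 SD (n = 3), left out for SIRT4 because it was listed at 0 in 2 libraries. The groups overlap in every panel, and the 3 GSKA values of SIRT1, at 8.57 to 11.2 FPKM, lie closer together than its controls, at 8.49 to 24.2 FPKM.

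SIRT1, a nuclear enzyme that deacetylates histones and transcription factors, is encoded on chromosome 28 from 24405508 to 24432036 (positions as deposited, build not named, ENSBTAG00000014023, plus strand). SIRT1 was at 9.10, 11.2 and 8.57 FPKM in GSKA replicates 1, 2 and 3, against 24.2, 8.49 and 19.4 FPKM in control replicates 1, 2 and 3. The 3 GSKA libraries and control replicate 2 lay close together, and control replicates 1 and 3 were above them. The means were 9.61 ± 1.37 FPKM in the GSKA group and 17.3 ± 8.04 FPKM in the control group (SD, n = 3 each). The log2 fold change of FPKM + 1, GSKA over control, was -0.68 with a 95% interval from -1.50 to 0.13 (standard error 0.38, limma adjusted p = 0.466). An exact permutation test of the same difference gave p = 0.4 (two-sided), where 3 libraries against 3 cannot go below 0.1. The log2 fold change was -1.10 without control replicate 2 and -0.40 without control replicate 1 (limma adjusted p = 0.171 and 0.686). Control replicate 1, the highest for SIRT1, was also the library with 13.2% of its FPKM on mitochondrial genes, and the part of this in the SIRT1 value was not tested.

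SIRT6, which deacetylates histone H3 at chromatin and takes part in DNA repair and telomere upkeep, lies on chromosome 7 from 19856911 to 19865253 (ENSBTAG00000019909, plus strand). SIRT6 had 3.53, 5.75 and 7.40 FPKM in GSKA replicates 1, 2 and 3, against 6.69, 7.86 and 8.10 FPKM in control replicates 1, 2 and 3. Of the GSKA libraries, replicates 1 and 2 lay below every control, and replicate 3 lay between control replicates 1 and 2. The mean was 5.56 ± 1.94 FPKM in the GSKA group and 7.55 ± 0.753 FPKM in the control group (SD, n = 3 each). Its log2 fold change was -0.42 (95% interval -1.19 to 0.34, limma adjusted p = 0.645; exact permutation p = 0.2), and it was -0.18 without GSKA replicate 1 (limma adjusted p = 0.943).

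SIRT7, the nucleolar member, associated with ribosomal RNA transcription and with deacetylation of histone H3, lies on chromosome 19 from 50976407 to 50982602 (ENSBTAG00000000039, plus strand), 324 bases from PCYT2. SIRT7 was at 23.4, 16.6 and 22.1 FPKM in GSKA replicates 1, 2 and 3, against 17.7, 28.5 and 17.5 FPKM in control replicates 1, 2 and 3. Control replicate 2 was the highest and GSKA replicate 2 the lowest of the 6 libraries. The means of 20.7 ± 3.61 FPKM in the GSKA group and 21.2 ± 6.25 FPKM in the control group (SD, n = 3 each) differed by less than either SD. Its log2 fold change was -0.014 (95% interval -0.66 to 0.63, limma adjusted p = 0.992; exact permutation p = 1.0), and the sign turned positive, to 0.21 and 0.13, without control replicate 2 or GSKA replicate 2. In fold terms this interval runs from 0.633 to 1.55, so a change of SIRT7 by 2-fold in either direction lies outside it.

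SIRT2, a mainly cytosolic deacetylase of tubulin, was low in every library. It is encoded on chromosome 18 from 48593799 to 48614115 (ENSBTAG00000001776, minus strand). SIRT2 was at 1.73, 1.46 and 1.10 FPKM in GSKA replicates 1, 2 and 3, against 0.881, 2.60 and 3.91 FPKM in control replicates 1, 2 and 3. The control libraries were the lowest and the highest of all 6, with the GSKA libraries between control replicate 1 and control replicate 2. The mean was 1.43 ± 0.315 FPKM in the GSKA group and 2.47 ± 1.52 FPKM in the control group (SD, n = 3 each), with a log2 fold change of -0.41 (95% interval -1.34 to 0.52, limma adjusted p = 0.724; exact permutation p = 0.4). It was -0.80 without control replicate 1 and -0.11 without control replicate 3 (limma adjusted p = 0.414 and 0.937).
At its 3′ end, 331 bases of the annotated SIRT2 span are shared with RINL on the same strand, and fragments there cannot be assigned to either gene with certainty. RINL had 0.206, 0.0709 and 0.477 FPKM in GSKA replicates 1, 2 and 3, against 2.62, 0.294 and 0.750 FPKM in control replicates 1, 2 and 3. Control replicate 1 was thus highest for RINL and lowest for SIRT2.

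SIRT3, the main deacetylase of mitochondrial proteins, was the second most abundant member after SIRT7 in the mean of both groups. It lies on chromosome 11 from 82879486 to 82902135 (ENSBTAG00000002044, minus strand). SIRT3 had 24.1, 14.9 and 11.6 FPKM in GSKA replicates 1, 2 and 3, against 13.8, 27.0 and 22.7 FPKM in control replicates 1, 2 and 3. GSKA replicate 1 lay among the 2 high controls, and control replicate 1 lay between the 2 low GSKA libraries. The mean was 16.9 ± 6.47 FPKM in the GSKA group and 21.2 ± 6.73 FPKM in the control group (SD, n = 3 each), with a log2 fold change of -0.32 (95% interval -1.07 to 0.43, limma adjusted p = 0.729; exact permutation p = 0.5). It was -0.60 without GSKA replicate 1 and -0.10 without GSKA replicate 3 (limma adjusted p = 0.726 and 0.952).
The whole SIRT3 span lies inside that of NBAS on the opposite strand, and the library kit does not mark strand, so fragments of shared exons cannot be told apart. NBAS was at 0.658, 1.42 and 1.22 FPKM in GSKA replicates 1, 2 and 3, against 0.744, 0.777 and 0.913 FPKM in control replicates 1, 2 and 3. Its highest value, 1.42 FPKM, was far below the lowest of SIRT3, 11.6 FPKM.

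SIRT4, a mitochondrial enzyme known for acting on glutamate dehydrogenase and on lipoyl groups of the pyruvate dehydrogenase complex, was the member nearest the lower limit of the data. It lies on chromosome 17 from 62623628 to 62639894 (ENSBTAG00000021168, plus strand), and its span holds an annotated U4 RNA of 141 bases on the opposite strand. SIRT4 was listed at 0 in GSKA replicates 1 and 3 and at 2.02 FPKM in GSKA replicate 2, against 1.55, 0.849 and 2.13 FPKM in control replicates 1, 2 and 3. GSKA replicate 2 lay within the range of the controls, so the lower GSKA value rested on the 2 libraries listed at 0. With at least 1 FPKM in exactly 3 libraries it just met the filter for testing. The log2 fold change was -0.76 (95% interval -1.81 to 0.29, limma adjusted p = 0.535; exact permutation p = 0.3), and it became -2.46 with a pseudocount of 0.1 in place of 1 (limma adjusted p = 0.482), so its size is set by the pseudocount.

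SIRT5, which removes malonyl, succinyl and glutaryl groups in mitochondria, is encoded on chromosome 23 from 43027528 to 43050452 (ENSBTAG00000014904, minus strand). SIRT5 was at 0.547, 2.23 and 1.18 FPKM in GSKA replicates 1, 2 and 3, against 1.36, 0.684 and 1.10 FPKM in control replicates 1, 2 and 3. The lowest and the highest library both belonged to the GSKA group. The mean was 1.32 ± 0.851 FPKM in the GSKA group and 1.05 ± 0.343 FPKM in the control group (SD, n = 3 each), with a log2 fold change of 0.13 (95% interval -0.76 to 1.01, limma adjusted p = 0.925; exact permutation p = 0.8). The sign turned negative without GSKA replicate 2, at -0.15, and without control replicate 2.

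Of the 7 sirtuins tested, 0 had an adjusted p under 0.05 from limma, where 0.357% of the 10654 tested genes had (0.225% higher and 0.131% lower in the GSKA group). At an unadjusted p under 0.05 the count was again 0 of 7 (13.4% of all tested genes, with 9.4% higher and 4.03% lower), although SIRT1 passed that threshold after median scaling, after quantile normalization and without control replicate 2, and the groups were free of overlap in 0 of 7 (19.4% of all tested genes, with 12.9% higher and 6.45% lower). The fitted log2 fold change was below 0 in 6 of 7 sirtuins and in 42.8% of all tested genes. The median over the members was -0.41, beside 0.09 over all tested genes. The members share the same 6 libraries and are not replicates of the treatment, so this count carries no test. The 95% intervals reach from a fold of 0.355 to 1.09 for SIRT1, from 0.438 to 1.27 for SIRT6 and from 0.475 to 1.34 for SIRT3, and a fold of 0.5 lies within each of these 3.

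**Figure D2:**
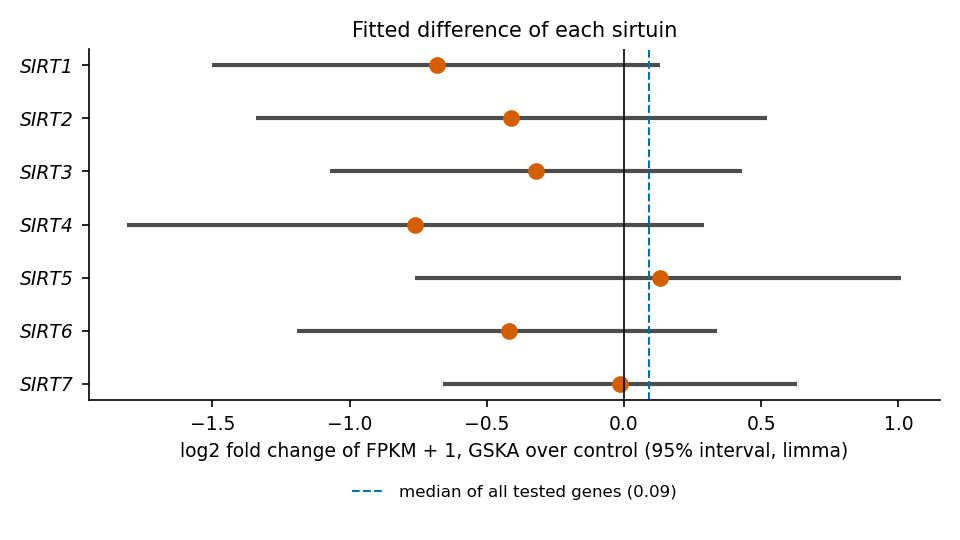
Fitted log2 fold change of FPKM + 1, GSKA over control, for each sirtuin (point) with its 95% interval from limma (line), 3 libraries a group. Every interval includes 0, 6 points lie below 0, and the dashed line is the median of all tested genes at 0.09.

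The order of the levels was much the same in both groups. In the GSKA libraries the mean FPKM ran in the order SIRT7, SIRT3, SIRT1, SIRT6, SIRT2, SIRT5 and SIRT4, and in the controls in the order SIRT7, SIRT3, SIRT1, SIRT6, SIRT2, SIRT4 and SIRT5. Neighbours were compared within each library on log2(FPKM + 1), and said to differ where the mean difference exceeded its SD over 3 libraries.
SIRT7 and SIRT3 did not differ beyond their spread, at 0.33 ± 0.48 in the GSKA libraries and 0.02 ± 0.35 in the controls (log2 difference, SD, n = 3 each). SIRT3 was above SIRT1 by 0.70 ± 0.53 in the GSKA libraries, while in the controls the difference of 0.34 ± 1.17 was within its spread. SIRT1 exceeded SIRT6 in all 6 libraries, by 0.73 ± 0.50 in the GSKA libraries and by 0.99 ± 0.82 in the controls.
The widest step was between SIRT6 and SIRT2, at 1.39 ± 0.64 in the GSKA libraries and 1.41 ± 0.58 in the controls, and it was found in all 6 libraries. SIRT2 did not differ beyond the spread from the member after it, which was SIRT5 in the GSKA libraries (0.13 ± 0.63) and SIRT4 in the controls (0.39 ± 0.74). The last step was beyond the spread in both groups but ran in opposite directions, with SIRT5 above SIRT4 by 0.62 ± 0.51 in the GSKA libraries and SIRT4 above SIRT5 by 0.27 ± 0.26 in the controls. Both genes lay near or under 2 FPKM, and 2 of the 3 GSKA values of SIRT4 were listed at 0.

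Among all tested genes the abundant sirtuins were moderately expressed. The mean log2(FPKM + 1) of SIRT7 exceeded that of 72.3% of tested genes, SIRT3 that of 70.2%, SIRT1 that of 63.5% and SIRT6 that of 49.5%. SIRT2 stood at 17.6%, SIRT5 at 6.43% and SIRT4 at 2.24%. The members also differed in how far libraries of the same group scattered. The within-group SD on the log2 scale was 0.324 for SIRT7 and 0.333 for SIRT6, below the median of 0.414 over all tested genes, and 0.539 for SIRT1, 0.518 for SIRT2 and 0.492 for SIRT3, above it. SIRT4 had the widest scatter of the family, at 0.705.

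The ratios between the abundant members varied from library to library. The log2 ratio of SIRT1 to SIRT7 was -1.36, -0.57 and -1.37 in GSKA replicates 1, 2 and 3, against 0.45, -1.74 and 0.14 in control replicates 1, 2 and 3. SIRT1 was thus below SIRT7 in all GSKA libraries and above it in control replicates 1 and 3, while control replicate 2 had the lowest ratio of all 6. The ratio averaged -1.10 ± 0.46 in the GSKA group and -0.38 ± 1.19 in the control group (SD, n = 3 each), a difference smaller than the SD of the controls. The log2 ratio of SIRT1 to SIRT3 behaved alike, at -1.40, -0.42 and -0.43 in GSKA replicates 1, 2 and 3, against 0.81, -1.67 and -0.23 in control replicates 1, 2 and 3. Control replicate 2 was low for SIRT1 and the highest library for both SIRT3 and SIRT7. SIRT1 was above SIRT6 throughout, with log2 ratios of 1.37, 0.96 and 0.21 in GSKA replicates 1, 2 and 3, against 1.85, 0.11 and 1.26 in control replicates 1, 2 and 3. Uneven ratios were not limited to SIRT1, since the log2 ratio of SIRT3 to SIRT6 was 1.60 ± 1.08 in the GSKA group and 1.44 ± 0.37 in the control group (SD, n = 3 each).

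Summed over the family, sirtuin FPKM was lower in each GSKA library than in each control. The sum was 62.4, 54.2 and 51.9 FPKM in GSKA replicates 1, 2 and 3, against 66.2, 76.0 and 74.8 FPKM in control replicates 1, 2 and 3. The means were 56.1 ± 5.53 FPKM in the GSKA group and 72.3 ± 5.34 FPKM in the control group (SD, n = 3 each), a ratio of 0.776. A sum over chosen genes is given without a test. The ratio was 0.767 on the TPM scale, where every library has the same total, and 0.714 after median scaling, without overlap in either. On the TPM scale the highest GSKA sum was 113 and the lowest control sum 114. With 1 library left out the ratio ranged from 0.733 to 0.806. Leaving out a library cannot bring overlap about, so these settings are no check of the separation.
The separation depended on SIRT1. Without SIRT1 the sum of the other members was 43.0 to 53.3 FPKM in the GSKA libraries and 42.0 to 67.5 FPKM in the controls, which overlap, whereas leaving out any other single member kept the groups apart.

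**Figure D3:**
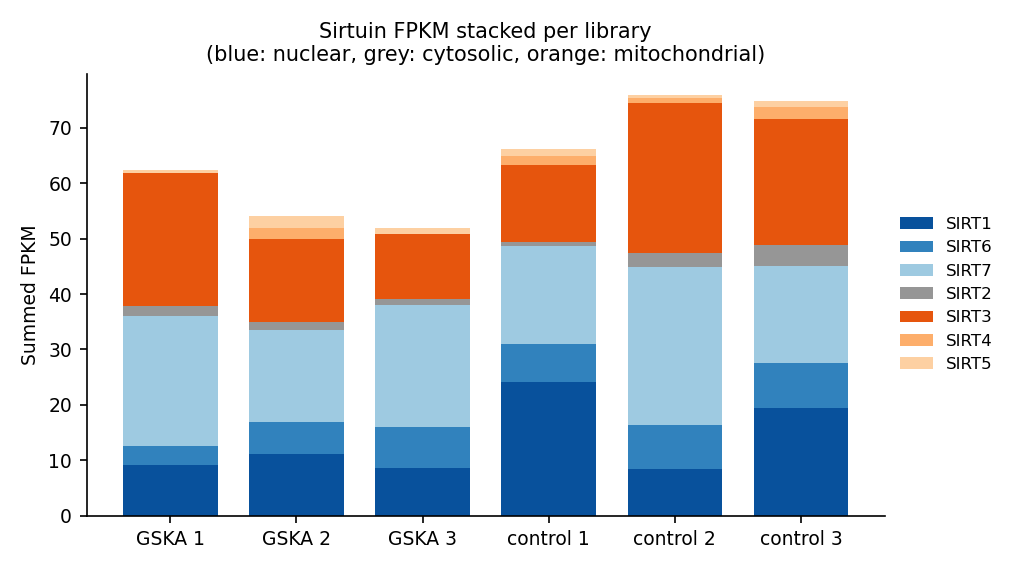
Stacked FPKM of the 7 sirtuins in each library, with nuclear members in blue, cytosolic SIRT2 in grey and mitochondrial members in orange. The stacks reach 51.9 to 62.4 FPKM in the 3 GSKA libraries and 66.2 to 76.0 FPKM in the 3 controls.

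By compartment, the nuclear members SIRT1, SIRT6 and SIRT7 summed to 36.0, 33.5 and 38.0 FPKM in GSKA replicates 1, 2 and 3, against 48.6, 44.8 and 45.0 FPKM in control replicates 1, 2 and 3. These sums did not overlap, although each of the 3 genes did on its own. They hold SIRT1, on which the separation of the family sum depended, so they are not a separate result. The mitochondrial members SIRT3, SIRT4 and SIRT5 summed to 24.6, 19.2 and 12.7 FPKM in GSKA replicates 1, 2 and 3, against 16.7, 28.6 and 25.9 FPKM in control replicates 1, 2 and 3, with overlap. The mean shares of the nuclear and of the mitochondrial members were alike in both groups. Nuclear members made up 64.3% ± 8.06 of sirtuin FPKM in the GSKA group and 64.2% ± 8.01 in the control group, and mitochondrial members 33.1% ± 7.71 in the GSKA group and 32.5% ± 6.43 in the control group (SD, n = 3 each). Set beside the zinc-dependent deacetylases HDAC1 to HDAC11, whose summed level was 84.1 to 106 FPKM in the GSKA libraries and 83.2 to 91.8 FPKM in the controls, sirtuin FPKM was 58.3% ± 6.17 of theirs in the GSKA group and 84.1% ± 6.23 in the control group (SD, n = 3 each). This percentage holds the same family sum, with SIRT1 in it, so it is not a separate result. HDAC3, which was not called, had means of 14.6 FPKM in the GSKA group and 6.55 FPKM in the control group. Its part in the percentage was not tested.
The summed levels of markers of the embryo's maternal RNA and of other cells are set beside these sums. The maternal markers, with KHDC3L the 1 called, summed to 3100 to 3940 FPKM in the GSKA libraries and 2250 to 3140 FPKM in the controls, which overlap. Of the 10 markers, 5 had groups apart, all higher in the GSKA group, beside 12.9% of all tested genes. The methods state that cumulus cells were taken off by pipetting after fertilization. Of 10 cumulus and granulosa markers 8 were in the files and all 8 were above 0 in some library, and they summed to 66.2 to 77.3 FPKM in the GSKA libraries and 38.1 to 52.5 FPKM in the controls, with CYP19A1, INHA and LHCGR near 0 throughout and STAR and TNFAIP6 carrying most of the sum. Of 7 sperm markers 5 were in the files, and they summed to 6.78 to 7.76 FPKM in the GSKA libraries and 0 to 0.872 FPKM in the controls. Of 7 blood markers 5 were in the files, summing to 2.33 to 8.67 FPKM in the GSKA libraries and 6.76 to 17.0 FPKM in the controls, which overlap. The cumulus sums and the sperm sums did not overlap and were higher in the GSKA libraries. Only 5 of the cumulus, sperm and blood markers reached the filter for testing, and none of the 5 passed. At an unadjusted p under 0.05 from limma 3 of the 5 were higher, beside 9.4% of all tested genes. These were TNFAIP6, STAR and the sperm marker TNP2. TNP2 reached the filter only through the 3 GSKA libraries, where it is high, so its place in this count is no support. The part of the marker RNAs in the sirtuin sums was not tested.

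The genes that supply NAD were found at very unequal levels, and none of the tested ones passed. Of 26 genes of NAD synthesis and transport 16 were in the files by symbol and 9 were tested. At an adjusted p under 0.05 from limma 0 were higher and 0 lower, and the median log2 fold change was 0.06. The count at an unadjusted p under 0.05 was 0, beside 13.4% of all tested genes. NAMPT, the rate-limiting enzyme of NAD salvage from nicotinamide, was at 60.4 ± 9.07 FPKM in the GSKA group and 62.2 ± 19.8 FPKM in the control group (SD, n = 3 each). NMNAT1, the nuclear enzyme that turns NMN into NAD, was at 37.2, 32.4 and 31.1 FPKM in GSKA replicates 1, 2 and 3, against 36.2, 22.0 and 29.5 FPKM in control replicates 1, 2 and 3, a log2 fold change of 0.22 (limma adjusted p = 0.775).
The genes of the pathway with the smallest p were otherwise KYNU, the kynureninase of the route from tryptophan, at a log2 fold change of 1.06, and the NAD kinases NADK at 0.48 and NADK2 at -0.30 (limma adjusted p = 0.422, 0.609 and 0.785). KYNU was listed at 0 in control replicate 1. SLC25A51, the carrier of NAD into mitochondria, was at 2.93 ± 1.32 FPKM in the GSKA group and 3.56 ± 1.17 FPKM in the control group (SD, n = 3 each). NAPRT and NMRK1, which start the routes from nicotinic acid and nicotinamide riboside, were below the filter.

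Other NAD consumers did not pass either. Of 18 such genes 16 were in the files and 9 were tested, with 0 higher and 0 lower and a median log2 fold change of 0.22. The count at an unadjusted p under 0.05 from limma was 0, beside 13.4% of all tested genes. PARP1, the main poly-ADP-ribose polymerase of DNA repair, was at 34.3 ± 5.93 FPKM in the GSKA group and 24.9 ± 4.74 FPKM in the control group (SD, n = 3 each), with a log2 fold change of 0.45 (limma adjusted p = 0.513). The tankyrase TNKS2 was at -0.61, PARP12 at 0.32 and PARP11 at 0.31 (log2 fold changes, limma adjusted p = 0.612, 0.672 and 0.775). Groups were apart in 1 of the 9, beside 19.4% of all tested genes. This was PARP12, at 14.9, 13.4 and 16.0 FPKM in GSKA replicates 1, 2 and 3, against 11.9, 12.7 and 10.4 FPKM in control replicates 1, 2 and 3. The NAD hydrolases CD38 and SARM1 were below the filter.

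Of 9 regulators of sirtuins, all in the files, 8 were tested and none passed, with a median log2 fold change of 0.23. The count at an unadjusted p under 0.05 from limma was 1 higher and 0 lower, beside 9.4% and 4.03% of all tested genes. Groups were apart in that gene alone, beside 19.4% of all tested genes. That gene was STUB1, a ubiquitin ligase known in human cells to stabilise SIRT6. STUB1 was at 15.2, 11.4 and 16.5 FPKM in GSKA replicates 1, 2 and 3, against 5.50, 9.93 and 9.45 FPKM in control replicates 1, 2 and 3, without overlap (log2 fold change 0.75, limma adjusted p = 0.346). CCAR2, which binds and inhibits SIRT1, was at 1.95, 4.03 and 4.21 FPKM in GSKA replicates 1, 2 and 3, against 7.76, 5.32 and 4.19 FPKM in control replicates 1, 2 and 3 (log2 fold change -0.63, limma adjusted p = 0.522). RPS19BP1, the SIRT1 activator also called AROS, had a mean of 120 ± 6.46 FPKM in the GSKA group and 95.7 ± 24.4 FPKM in the control group (SD, n = 3 each), with a log2 fold change of 0.35 (limma adjusted p = 0.572). SENP1, a SUMO protease, was also at 0.35 (limma adjusted p = 0.698).

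Among known protein targets of the nuclear and cytosolic sirtuins, 26 of 27 were in the files and 22 were tested. None passed, and the median log2 fold change was -0.03. At an unadjusted p under 0.05 from limma 0 were higher and 2 lower, beside 9.4% and 4.03% of all tested genes. Groups were apart in 3 of the 22, beside 19.4% of all tested genes. TUBA1B, the alpha-tubulin that SIRT2 deacetylates, was at 131, 150 and 111 FPKM in GSKA replicates 1, 2 and 3, against 192, 235 and 228 FPKM in control replicates 1, 2 and 3. The groups did not overlap, and the log2 fold change of -0.74 had an unadjusted p of 0.00471 and an adjusted p of 0.161 from limma. TUBA1B belongs to a family of similar copies, between which the assignment of fragments is uncertain.
GABPB1, a subunit of a nuclear factor for mitochondrial genes and a target of SIRT7, was at 17.3, 15.9 and 17.1 FPKM in GSKA replicates 1, 2 and 3, against 22.0, 35.1 and 27.7 FPKM in control replicates 1, 2 and 3, also without overlap (log2 fold change -0.70, limma adjusted p = 0.296). PPARGC1A, a coactivator of mitochondrial genes and a target of SIRT1, was the other gene without overlap, on the higher side, at 5.21, 5.53 and 5.55 FPKM in GSKA replicates 1, 2 and 3, against 3.31, 4.90 and 3.57 FPKM in control replicates 1, 2 and 3 (log2 fold change 0.40, limma adjusted p = 0.659). The methyltransferase SUV39H1 was at -0.94 and POLR1E, an RNA polymerase I subunit that SIRT7 deacetylates, at -0.57 (log2 fold changes, limma adjusted p = 0.427 and 0.410).

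Of 23 protein targets of the mitochondrial sirtuins, all in the files, 19 were tested and none passed, with a median log2 fold change of -0.12. Groups were apart in 1 of the 19, beside 19.4% of all tested genes. The same gene was the 1 higher at an unadjusted p under 0.05 from limma, with 0 lower, beside 9.4% and 4.03% of all tested genes. The 1 was SDHA, the flavoprotein of respiratory complex II and a target of SIRT3, at 11.1, 10.2 and 16.4 FPKM in GSKA replicates 1, 2 and 3, against 5.58, 7.25 and 6.69 FPKM in control replicates 1, 2 and 3. Its groups did not overlap (log2 fold change 0.83, limma adjusted p = 0.288). The fatty acid oxidation enzymes HADHA and ACADVL were at 0.62 and -0.84, and DLAT of the pyruvate dehydrogenase complex at -0.38 (log2 fold changes, limma adjusted p = 0.424, 0.454 and 0.710). SOD2, the mitochondrial superoxide dismutase, was at 33.7 ± 5.81 FPKM in the GSKA group and 32.0 ± 5.92 FPKM in the control group (SD, n = 3 each).
Of the 11 zinc-dependent deacetylases, all in the files, 10 were tested and none passed, with a median log2 fold change of 0.06. At an unadjusted p under 0.05 from limma 1 was higher and 0 lower, beside 9.4% and 4.03% of all tested genes. That gene was HDAC3, at 14.9, 19.1 and 9.91 FPKM in GSKA replicates 1, 2 and 3, against 5.29, 10.8 and 3.52 FPKM in control replicates 1, 2 and 3 (limma adjusted p = 0.249). GSKA replicate 3 lay just below control replicate 2. HDAC6 was at -0.49, HDAC10 at 0.43 and HDAC9 at 0.30 (log2 fold changes, limma adjusted p = 0.710, 0.721 and 0.785).

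**Figure D4:**
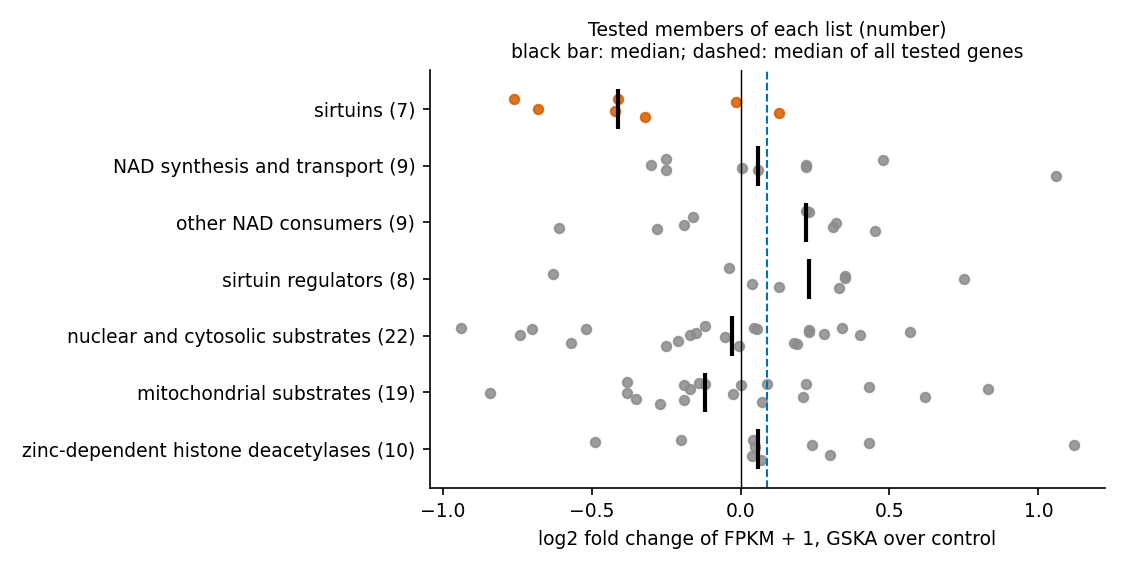
Fitted log2 fold change of FPKM + 1, GSKA over control, of every tested member of the sirtuin family (orange) and of the 6 related lists (grey), with the median of each list as a black bar. The sirtuin median lies at -0.41, the medians of the related lists lie between -0.12 and 0.23, and the dashed line marks 0.09, the median of all tested genes.

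For each sirtuin except SIRT3, the gene outside the family whose profile over the 6 libraries was most like its own was sought among tested genes that vary at least as much. The measure was the root-mean-square difference of log2(FPKM + 1) after subtracting each gene's mean, and with 1025 to 7758 candidates and 6 libraries a small value is no sign of a relation. FGF2 was nearest to SIRT1 (0.118), with 1.43, 1.64 and 1.21 FPKM in GSKA replicates 1, 2 and 3, against 5.96, 1.51 and 4.18 FPKM in control replicates 1, 2 and 3. FGF2, a fibroblast growth factor, thus also had control replicate 2 beside the GSKA libraries. The nearest genes were ZBTB37 for SIRT6 (0.101), SMIM10L1 for SIRT7 (0.069), SMAD3 for SIRT2 (0.196), GPD2 for SIRT5 (0.131) and TAC1 for SIRT4 (0.253), each value a root-mean-square difference on the log2 scale.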

How the data were processed

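RNA of 8-cell bovine embryos was analysed in 3 GSKA and 3 control libraries. The authors deposited 1 table of FPKM values per library; the tools listed in the submitters' processing notes are edgeR, StringTie 1.3.4d, HISAT2 2.0.4 and cutadapt 1.9. Their genome build was not given in the sources used here. All 7 sirtuins lie on the same chromosomes in the RefSeq annotation of ARS-UCD2.0. A further deposited table, with fold changes, p-values and q-values of the authors' own comparison, was not used. Symbols were those of the files, which give one for 15346 of 18862 genes.

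The 10654 genes that reached 1 FPKM in 3 or more libraries were compared with limma 3.58.1 in R 4.3.3 on log2(FPKM + 1), with group as the only term, an intensity trend and Benjamini-Hochberg adjustment over all tested genes. Fold changes on this scale understate the change of low genes. FPKM is not a count, so the count test named in the study's methods was not run. Single sirtuins were also compared by an exact permutation test over 20 labellings. Besides the 7 sirtuins, the genes named are up to 4 members of each of 6 related lists with the smallest p and the gene nearest in profile to each sirtuin (SIRT3 excepted, whose result is not reported here); other list members are named for their role or after their values were seen. Members and lists were chosen with earlier results of these data known. Alternatives covered pseudocount, filter, scaling, replicate number as a block, variance model and each library left out.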

Additional observations from a re-analysis of the deposited data

How the results depend on the processing

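No sirtuin passed the test (adjusted p under 0.05 from limma) in any of 113 fits over 17 alternatives, and the sign of the reported value turned in 4 of them. These were SIRT5 without control replicate 2 (-0.0092) and without GSKA replicate 2 (-0.15), and SIRT7 without the same libraries (0.21 and 0.13, log2 fold changes). With 1 library left out, SIRT1 ranged from -1.10 to -0.40, SIRT5 from -0.15 to 0.38 and SIRT7 from -0.13 to 0.21. At an unadjusted p under 0.05 SIRT1 passed under 3 alternatives, median scaling (log2 fold change -0.78, limma adjusted p = 0.386), quantile normalization (-0.79, limma adjusted p = 0.373) and without control replicate 2 (-1.10, limma adjusted p = 0.171). No member of the 6 related lists passed under any alternative. The number of genes called over all tested genes was less stable, at 38 (24 higher and 14 lower). It was 15 with a pseudocount of 0.1, 7 without the intensity trend, 0 with no filter on FPKM (limma, 1664 at an unadjusted p under 0.05), and 4 to 34 with 1 library left out. After median scaling it was 21 (7 higher and 14 lower), after quantile normalization 29 (14 and 15), on the TPM scale 30 (16 and 14), and with a pseudocount of 0.5 it was 29 (15 and 14). The cause was not tested. Library weights gave 57.

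With the replicate number as a block, 19 genes passed and no sirtuin did. Same-numbered libraries did not deviate together (correlations of -0.0824, 0.136 and -0.125 for numbers 1, 2 and 3). With 3 libraries a group these correlations cannot show whether the number pairs the samples. SIRT2, SIRT4 and SIRT5 had no value with a minimum of 5 FPKM, and SIRT4 had none without control replicate 1, control replicate 3 or GSKA replicate 2, since it then fell below the filter. Alternatives for the summed sirtuin FPKM were chosen after seeing the data; its ratio was 0.694 without SIRT7 and 0.846 without SIRT1. The depth is unknown, so values near 1 FPKM, as for SIRT4 and SIRT5, carry a counting error that cannot be given.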

Other observations

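The RNA of 2 protein targets of sirtuins, too low to be tested, was listed at 0 in the controls and above 0 in at least 2 GSKA libraries. They were chosen after their values were seen. The same pattern was found in 405 of all 18862 genes (2.15%), among them 3 sperm markers (TNP1, ODF1 and SMCP), and the reverse pattern in 366 genes (1.94%). OTC, the ornithine transcarbamylase of the urea cycle and a target of SIRT3, was at 0.392, 0.880 and 3.77 FPKM in GSKA replicates 1, 2 and 3 and listed at 0 in all 3 controls. ACADL, a long-chain acyl-CoA dehydrogenase, was at 2.26 and 2.03 FPKM in GSKA replicates 1 and 3 and listed at 0 in GSKA replicate 2 and in all 3 controls. Values this low cannot be told from sampling, since the depth of the libraries is unknown.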
